A study of Mus musculus with 28 samples.

Results

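The mammary epithelium senses ovarian steroids through a subset of luminal cells. In sorted luminal and stromal cells of the mouse mammary gland, 8 genes for steroid receptors and for factors linked to that subset were examined here. They are the steroid receptors *Esr1*, *Pgr* and *Nr3c1*, the estrogen target *Greb1*, the transcriptional regulators *Foxa1*, *Gata3* and *Cited1*, and the surface protein gene *Prom1*. The genes were chosen by symbol, with earlier results of these data known. They are the entries of the deposited count table whose Ensembl identifiers map to these names, which gave 8 of 50600 genes.

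Estrogen and progesterone diffuse into cells and bind nuclear receptors, encoded by *Esr1* and *Pgr*, which then bind DNA and change transcription of nearby genes. In the mammary gland these receptors are found in a part of the luminal cells, which pass the hormonal signal on to their neighbours through secreted factors, and *Pgr* itself is an estrogen target. FOXA1 opens chromatin for the estrogen receptor, GATA3 maintains luminal identity, and CITED1 is a coactivator that binds the estrogen receptor. GREB1 is induced by estrogen and acts as a receptor cofactor. PROM1 (CD133) is a membrane glycoprotein used to sort hormone receptor-positive luminal cells in the mouse. *Nr3c1* encodes the glucocorticoid receptor, which most cell types carry.

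Cells came from *Pdgfrα*Cre *R26*mTmG mice on the C57BL/6 strain. Cre is driven from the *Pdgfra* promoter and is constitutive, so GFP marks cells that expressed Cre at any time and their descendants, whereas all other cells keep membrane tdTomato. Each of 7 adult mice, 4 untreated and 3 given estradiol plus progesterone (E+P), yielded 4 sorted populations, namely GFP+ and tdTomato+ cells of the luminal (CD49f-low EpCAM+) and of the stromal (CD49f- EpCAM-) gate. The study's methods describe slow-release pellets with 0.14 mg estradiol and 14 mg progesterone over 14 days in a sentence on wild-type mice, and separately give 10 to 12 weeks as the age of adult mice of the constitutive tracing model. All groups carry the Cre and reporter alleles, so GFP+ and tdTomato+ cells differ in labelling history and not in genotype.

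The 28 libraries held between 8623383 and 24583803 counts (median 15329083.5), so that 3 counts, the floor used here, correspond to 0.122 to 0.348 CPM (counts scaled to library size). The libraries have no molecular identifiers, and floors cover counting error only. RNA quality varied widely between samples and is not given per library, and mitochondrial genes took 4.3 to 15.9% of counts. The luminal gate was checked by the summed level of the 5 luminal epithelial markers *Krt8*, *Krt18*, *Krt19*, *Epcam* and *Cldn3*, which was 3650 to 6680 CPM in luminal and 2.81 to 431 CPM in stromal libraries. The 5 fibroblast markers summed to 20400 to 35300 CPM in GFP+ stroma and 887 to 3770 CPM in tdTomato+ stroma, which also held pericyte markers at 4530 to 7720 CPM and skeletal muscle markers at 1880 to 18600 CPM. Untreated mouse 3 had the most luminal signal in tdTomato+ stroma, at 431 CPM, followed by untreated mouse 2 at 259 CPM. Dissociation stress genes summed to 1520 to 10200 CPM over all libraries.

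The 250 bases before the first annotated start of *Greb1* and of *Esr1* are shown because these were the members called after E+P in both luminal and stromal cells. Both sequences were taken from RefSeq on GRCm38.p6, and capitals mark the 5-base estrogen response element core GGTCA on either strand (TGACC on the opposite one). The *Greb1* window is chr12:16800887-16801136 on the minus strand and the *Esr1* window is chr10:4611739-4611988 on the plus strand.
Greb1: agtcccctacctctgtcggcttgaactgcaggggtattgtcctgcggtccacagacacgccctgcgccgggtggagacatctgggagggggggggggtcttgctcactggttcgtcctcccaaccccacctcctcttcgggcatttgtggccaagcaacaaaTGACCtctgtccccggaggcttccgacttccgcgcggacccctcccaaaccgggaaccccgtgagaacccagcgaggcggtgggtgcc
Esr1: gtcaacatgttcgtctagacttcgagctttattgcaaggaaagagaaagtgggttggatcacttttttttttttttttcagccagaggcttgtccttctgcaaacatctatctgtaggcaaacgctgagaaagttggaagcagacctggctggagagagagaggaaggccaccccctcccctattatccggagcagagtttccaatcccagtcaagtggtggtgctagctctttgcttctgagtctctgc
The *Greb1* window holds 1 GGTCA core, on its opposite strand and starting 88 bases before the transcription start, and the *Esr1* window shown holds none, with 1 starting 15 bases after the start. Of their second annotated starts, which are not shown, that of *Greb1* (chr12:16757240-16757489) has 2 cores, starting 194 and 85 bases before it, and that of *Esr1* (chr10:4709908-4710157) has 0. The search covered both strands of 300-base windows, 250 bases before to 50 after each start, for 7 of the 8 members. GGTCA lay in 8 of 12 windows of members and in 40.5% of 32851 windows of all genes. The full palindrome, GGTCA and its reverse complement TGACC spaced by 3 bases, which contains the core, was found in 0.07% of all windows and in 0 of the 12. The glucocorticoid and progesterone element, AGAACA and TGTTCT spaced by 3 bases, occurred in 0.00913% of all windows and in 0 of the 12, and the GATA motif AGATAA in 11.2% and 0. The forkhead motif TGTTTAC was present in 3.65% of all windows and in 1 of the 12, that of *Foxa1*. A match is a run of letters and not a bound site.

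Levels of different genes were compared per kilobase of exon. In untreated tdTomato+ luminal cells *Gata3* was the most abundant member at 110.7 ± 25.2 CPM per kb (SD, n = 4), followed by *Foxa1* at 93.2 ± 12.8, *Pgr* at 56.8 ± 23.1, *Prom1* at 46.2 ± 21.5 and *Cited1* at 41.0 ± 22.3 CPM per kb. *Esr1* stood at 20.5 ± 5.73 CPM per kb, and *Nr3c1* at 4.68 ± 1.12 and *Greb1* at 2.22 ± 1.97 CPM per kb closed the order. In GFP+ stroma of untreated mice the order was led by *Nr3c1* at 31.5 ± 1.52 CPM per kb, with *Esr1* at 7.79 ± 2.20 CPM per kb next. All other values are CPM of the gene itself, and are compared between samples and not between genes. All 8 members passed the low-count filter in the luminal and in the stromal libraries. In bulk samples, fewer cells of a type and less RNA per cell cannot be told apart.

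**Figure D1:**
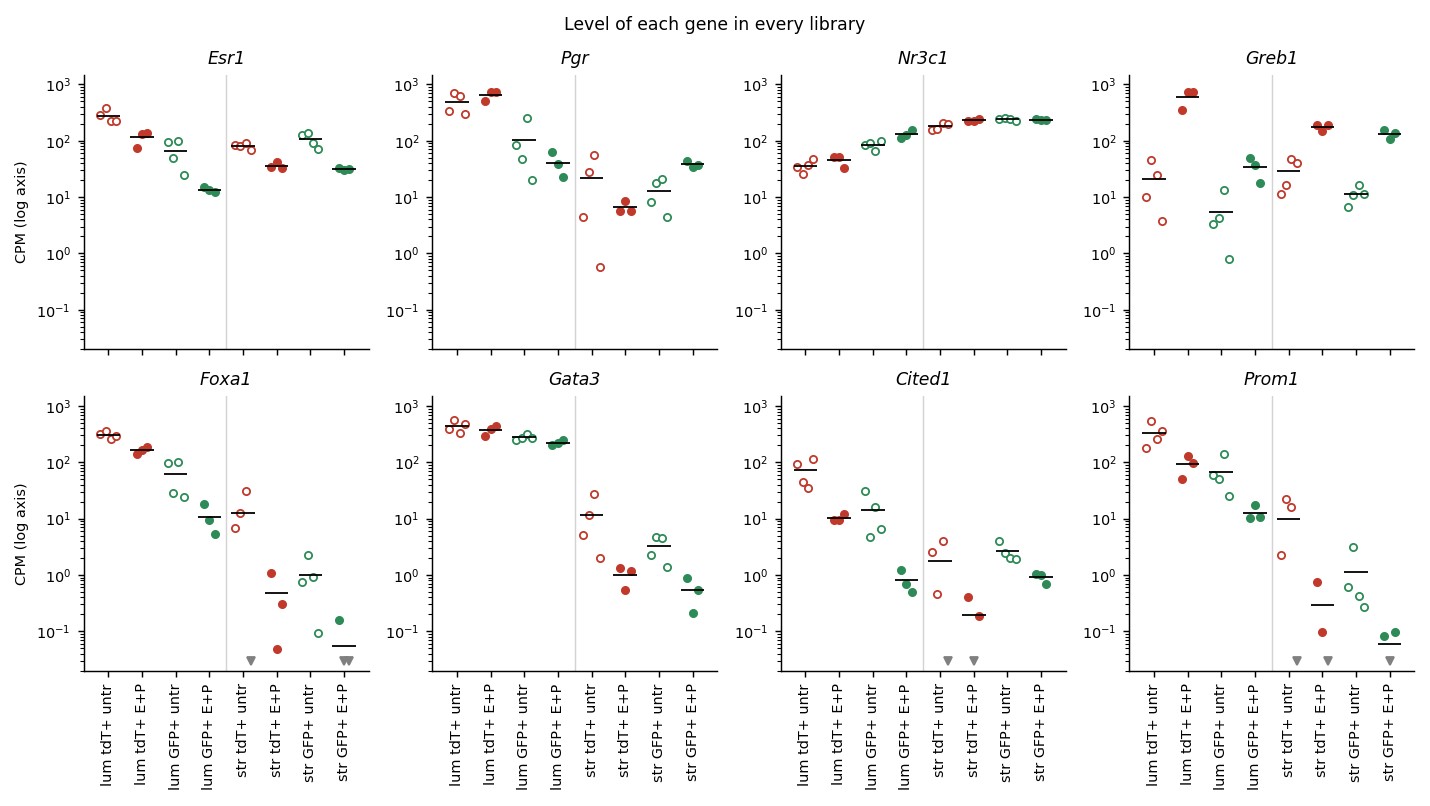
Level of each member in every library, in CPM on a log axis, by sorted population. Open points are untreated mice, filled points E+P mice, black bars group means and gray triangles at the bottom libraries with 0 counts. *Greb1* after E+P lies above untreated in all 4 populations and *Esr1* below it.

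The first comparison asked how GFP+ luminal cells differ from the other luminal cells of the same glands. By their label, GFP+ cells expressed Cre at some time or descend from cells that did. In untreated mice *Esr1*, *Foxa1*, *Cited1*, *Prom1* and *Gata3* were lower and *Nr3c1* was higher in GFP+ cells, by edgeR's quasi-likelihood test at an adjusted p below 0.01. That is 6 of 8 members, where 15.4% of all 16538 genes tested were called.

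*Esr1*, the estrogen receptor, was at 93.8, 48.5, 98.5 and 24.5 CPM in GFP+ luminal cells of untreated mice 1 to 4 and at 287, 389, 221 and 225 CPM in their tdTomato+ luminal cells. The groups did not overlap, and the log2 difference was -2.09 (SE 0.38, edgeR adjusted p = 0.0021). *Pgr*, the progesterone receptor, was at 85.8, 47.3, 257 and 20.5 CPM against 331, 691, 617 and 302 CPM. Untreated mouse 3 had the highest GFP+ value, and the log2 difference of -2.25 (SE 0.64) had an edgeR adjusted p of 0.02. *Nr3c1* ran the other way, at 84.3, 90.4, 65.4 and 98.9 CPM in GFP+ and 34.1, 25.8, 37.2 and 46.7 CPM in tdTomato+ luminal cells, a log2 difference of 1.22 (SE 0.20, edgeR adjusted p = 0.00092).

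*Foxa1* was at 96.4, 28.2, 103 and 24.4 CPM in GFP+ cells and at 322, 362, 261 and 296 CPM in tdTomato+ cells. Mice 2 and 4 were again the low pair, as for *Esr1* and *Pgr*. *Prom1* stood at 60.3, 50.9, 138.3 and 24.99 CPM against 177, 535, 259 and 356 CPM, and *Cited1* at 30.4, 4.73, 15.8 and 6.44 CPM against 92.1, 43.9, 34.8 and 117 CPM. The log2 differences were -2.31 for *Foxa1*, -2.28 for *Prom1* and -2.33 for *Cited1*, and the subsets did not overlap in any of them. *Gata3* differed least, from 390, 554, 329 and 489 CPM in tdTomato+ to 250, 275, 321 and 270 CPM in GFP+ cells, which is 1.59-fold lower.

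*Greb1* was low in both subsets of untreated mice, at 3.29, 4.33, 13.3 and 0.786 CPM in GFP+ and 10.2, 46.4, 24.6 and 3.8 CPM in tdTomato+ cells. These ranges overlapped and the difference was not called (log2 difference -1.93, SE 0.80, edgeR adjusted p = 0.087).

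Of these calls, that of *Nr3c1* was made without each of the 7 mice, and that of *Esr1* without 6, with an adjusted p of 0.023 without untreated mouse 2. *Foxa1* was called in 3 of 7 fits (lost without untreated mouse 1, 2 or 4 or E+P mouse 2), *Gata3* in 2 (kept without untreated mouse 3 or E+P mouse 1), and *Cited1* and *Prom1* in 1 each (kept without untreated mouse 1 and mouse 3). The count of members called was 1 without untreated mouse 2, and with the mouse as a replicate block *Cited1* and *Prom1* had adjusted p of 0.011 and 0.012.

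After E+P all 8 members were called between GFP+ and tdTomato+ luminal cells, where 25.4% of all genes tested were. *Esr1* was at 14.9, 13.4 and 12.3 CPM in GFP+ cells of E+P mice 1 to 3 and at 74.6, 132 and 138.4 CPM in tdTomato+ cells, 8.74-fold lower (log2 difference -3.13, SE 0.47, edgeR adjusted p = 0.00028). *Pgr* was at 62.4, 38.3 and 22.4 CPM against 509, 725 and 727 CPM, 16.4-fold lower. *Greb1* reached 356, 747 and 727 CPM in tdTomato+ cells and 50.2, 36.4 and 17.9 CPM in GFP+ cells, 18.0-fold lower (log2 difference -4.17, SE 0.94, edgeR adjusted p = 0.0041). In all 3 genes every GFP+ library lay below every tdTomato+ library.

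*Foxa1* was 15.6-fold lower in GFP+ cells, at 17.9, 9.47 and 5.37 CPM against 142, 164 and 185 CPM. *Cited1* was at 1.22, 0.700 and 0.499 CPM against 9.29, 9.53 and 11.98 CPM, 13.5-fold lower, and *Prom1* at 10.2, 17.3 and 10.7 CPM against 49.99, 130 and 98.0 CPM, 7.48-fold lower. *Gata3* was 1.73-fold lower, at 203, 220 and 247 CPM against 294, 395 and 438 CPM. *Nr3c1* was 2.80-fold higher, at 110.7, 128 and 155 CPM against 52.5, 51.2 and 32.9 CPM. The calls of *Esr1*, *Nr3c1* and *Foxa1* were made without each of the 7 mice, whereas those of *Pgr*, *Greb1*, *Cited1* and *Prom1* were lost without any of the 3 E+P mice, with adjusted p up to 0.026, 0.045, 0.035 and 0.032, and that of *Gata3* without E+P mouse 2 or 3 (up to 0.055), which leaves 4, 3 and 3 members called without E+P mouse 1, 2 and 3.

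In all 7 mice the GFP+ luminal library was below the tdTomato+ library for 7 of 8 members and above it for *Nr3c1*, and sign flips within mice gave an exact two-sided p of 0.0156 for each of the 8 genes, the smallest that 7 pairs allow and unaltered by Benjamini-Hochberg adjustment over them. The distance differed between mice, but 6 members stood at a similar share within a mouse. These are *Esr1*, *Pgr*, *Greb1*, *Foxa1*, *Cited1* and *Prom1*, grouped here after their values were seen and therefore described without a test. In untreated mouse 1 their GFP+ level was 25.9 to 34.1% of the tdTomato+ level (median 32.5%), and in mouse 3 it was 39.5 to 54.0% (median 44.9%). In untreated mice 2 and 4 it was lower, at 6.85 to 12.5% (median 9.43%) and 5.53 to 20.7% (median 7.63%).

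In the 3 E+P mice the same 6 genes stood at medians of 13.6, 6.56 and 3.62%, with ranges of 12.3 to 20.4%, 4.88 to 13.3% and 2.47 to 10.9%. Over all genes of at least 10.0 CPM in the tdTomato+ luminal library of a mouse, the median share was 87.2 to 96.9%. The range of the 6 members held 1.65 to 4.35% of these genes, and 2.88 to 5.74% lay at or below its upper end. That range was set by the 6 themselves, so this is a description and not a test. A small percentage here follows from low shares as well as from like ones. *Greb1* in untreated mouse 4 (3.8 CPM) and *Cited1* in E+P mice 1 and 2 (9.29 and 9.53 CPM) were below 10.0 CPM in tdTomato+ cells. *Gata3* stood at 49.7 to 97.4% (median 59.7% in untreated and 56.4% in E+P mice) and the summed luminal epithelial markers at 59.9 to 97.0% (medians 85.4 and 65.3%). *Nr3c1* stood at 176 to 473%. The 4 luminal progenitor markers (*Elf5*, *Kit*, *Aldh1a3* and *Cd14*) lay on the other side, with summed GFP+ levels of 282 to 1340% of tdTomato+ levels, and the part of cell composition in these differences was not tested.

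**Figure D2:**
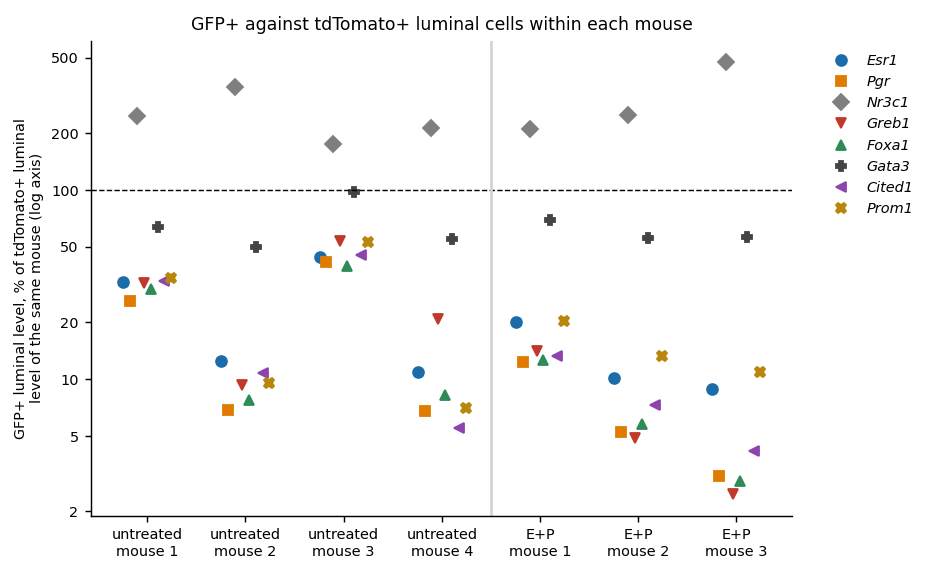
Level in GFP+ luminal cells as a percent of that in tdTomato+ luminal cells of the same mouse, on a log axis, for each member and mouse. Within a mouse *Esr1*, *Pgr*, *Greb1*, *Foxa1*, *Cited1* and *Prom1* lie near each other, from 2.47 to 54.0% over the 7 mice, *Gata3* lies above them and *Nr3c1* lies above 100%.

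The response to E+P was compared next within each luminal subset. In tdTomato+ luminal cells *Greb1* rose and *Cited1* fell, which is 2 of 8 members called where 14.1% of all genes tested were. In GFP+ luminal cells *Esr1*, *Foxa1* and *Cited1* fell, 3 of 8 members beside 5.96% of all genes. Between the same GFP+ libraries the mitochondrial share of counts went from 6.23 to 9.35% in untreated mice to 13.7 to 15.9% after E+P, the share of the 10 most abundant genes from 19.6 to 25.6% to 27.6 to 32.4%, and the summed luminal progenitor markers from 1410 to 2280 CPM to 1010 to 1190 CPM. In tdTomato+ luminal libraries the mitochondrial share went from 9.9 to 10.4% to 10.7 to 12.8% after E+P. Their share of the 10 most abundant genes went from 24.6 to 26.0% to 27.9 to 33.5%. Their summed progenitor markers went from 170 to 663 CPM to 95.1 to 161 CPM. None of these ranges overlapped in either subset, and their part in the responses was not tested.

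*Greb1* in tdTomato+ luminal cells went from 10.2, 46.4, 24.6 and 3.8 CPM in untreated mice to 356, 747 and 727 CPM after E+P. It rose 29.4-fold (log2 change 4.88, SE 0.86, edgeR adjusted p = 0.0017), and the lowest treated library was above the highest untreated one. Without E+P mouse 2 the adjusted p was 0.011. *Cited1* fell in the same cells 6.87-fold, from 92.1, 43.9, 34.8 and 117 CPM to 9.29, 9.53 and 11.98 CPM (edgeR adjusted p = 0.0064), a call lost without untreated mouse 4 or any E+P mouse (adjusted p up to 0.045).

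In GFP+ luminal cells *Greb1* was at 3.29, 4.33, 13.3 and 0.786 CPM before and 50.2, 36.4 and 17.9 CPM after E+P. The groups did not overlap, but the log2 change of 2.64 (SE 0.84) had an edgeR adjusted p of 0.054. The treated GFP+ values overlapped the untreated tdTomato+ values of 3.8 to 46.4 CPM. *Cited1* fell 18.6-fold in GFP+ cells, from 30.4, 4.73, 15.8 and 6.44 CPM to 1.22, 0.700 and 0.499 CPM (log2 change -4.21, SE 0.76, edgeR adjusted p = 0.0039).

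*Esr1* fell 4.92-fold in GFP+ luminal cells (log2 change -2.30, SE 0.44, edgeR adjusted p = 0.0051) to a narrow range of 12.3 to 14.9 CPM. In tdTomato+ cells it went from 221 to 389 CPM in untreated mice to 74.6 to 138.4 CPM, with no overlap, a log2 change of -1.26 (SE 0.41) and an edgeR adjusted p of 0.038. *Foxa1* fell 5.86-fold in GFP+ cells (edgeR adjusted p = 0.0093) and had a log2 change of -0.90 (SE 0.50, adjusted p = 0.20) in tdTomato+ cells. *Prom1* missed the threshold in both subsets, with log2 changes of -2.44 (SE 0.58, adjusted p = 0.015) in GFP+ and -1.81 (SE 0.55, adjusted p = 0.029) in tdTomato+ cells.

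*Pgr* was not called in either subset. In tdTomato+ luminal cells its 302 to 691 CPM in untreated mice overlapped 509 to 727 CPM after E+P (log2 change 0.46, SE 0.66, edgeR adjusted p = 0.64), and in GFP+ cells 20.5 to 257 CPM overlapped 22.4 to 62.4 CPM (log2 change -1.33, SE 0.69, adjusted p = 0.22). *Nr3c1* in GFP+ cells was 65.4 to 98.9 CPM before and 110.7 to 155 CPM after E+P, a log2 change of 0.63 (SE 0.21) with an edgeR adjusted p of 0.059. *Gata3* had log2 changes of -0.32 in GFP+ and -0.20 in tdTomato+ cells, neither of them called. None of the 3 calls in GFP+ luminal cells was made when any E+P mouse was left out, with adjusted p up to 0.041 for *Esr1*, 0.068 for *Foxa1* and 0.038 for *Cited1*. Those of *Esr1* and *Foxa1* were also lost without untreated mouse 1 or 3, and that of *Foxa1* also without untreated mouse 2.

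The difference in E+P response between the luminal subsets was tested directly. By edgeR 0 of 8 members were called, where 2.27% of all genes were, and by DESeq2 and limma-voom also 0. At an unadjusted p under 0.05 each of the 3 tools had 1 member. That of edgeR was *Foxa1*, with a log2 difference of responses of -1.65 (SE 0.71, edgeR adjusted p = 0.19). For *Greb1*, whose mean after E+P was 610 ± 220 CPM in tdTomato+ and 34.9 ± 16.2 CPM in GFP+ cells (SD, n = 3), the difference of responses was -2.24 on the log2 scale, with an adjusted p of 0.28.

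**Figure D3:**
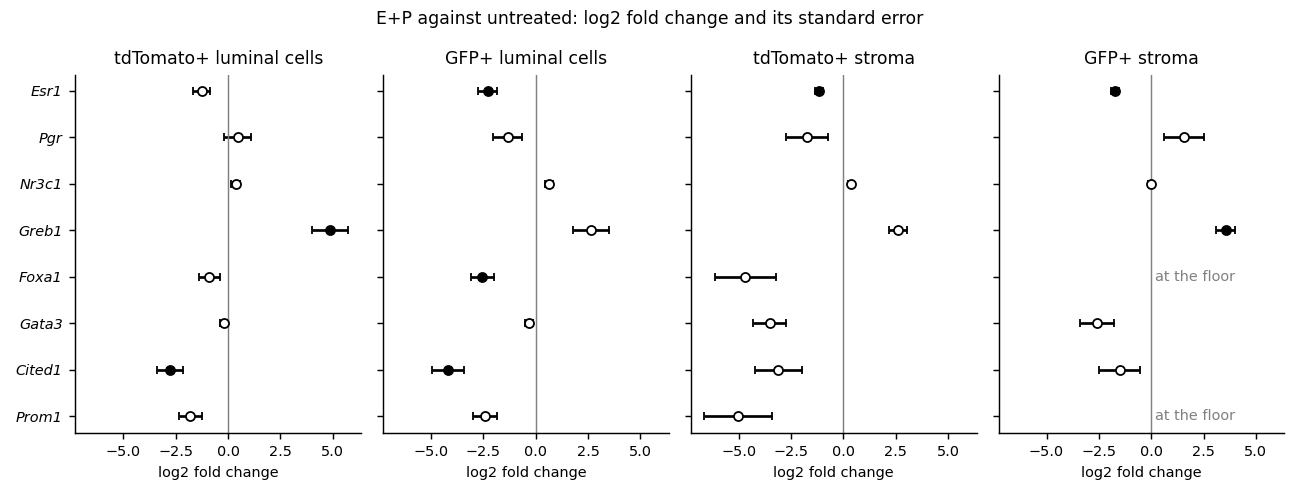
Log2 change after E+P for each member in the 4 sorted populations, with standard errors (bars). *Foxa1* and *Prom1* in GFP+ stroma had at most 3 counts after E+P and are left out. Filled points passed an edgeR adjusted p below 0.01. *Greb1* has the highest value in tdTomato+ luminal cells, at 4.88, and the change of *Esr1* is negative in all 4 populations, from -1.18 to -2.30.

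Stromal cells were examined for the same genes. GFP+ and tdTomato+ stroma of untreated mice differed in 1 of 8 members, where 28.5% of all 17783 genes tested were called, and after E+P in 0, where 28% of all genes were. The call was *Nr3c1*, at 245, 254, 243 and 226 CPM in GFP+ and 155, 164, 204 and 201 CPM in tdTomato+ stroma of untreated mice (log2 difference 0.39, SE 0.11, edgeR adjusted p = 0.0083). After E+P the ranges were 230 to 242 and 222 to 244 CPM. The *Nr3c1* call was made in 1 of the 7 fits without a mouse (that without untreated mouse 4) and was lost with library size scaling (adjusted p = 0.07) and with the mouse as a replicate block (0.016).

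*Esr1* in stroma of untreated mice was at 126, 136, 92.8 and 70.8 CPM in GFP+ and 84.6, 81.4, 91.1 and 68.6 CPM in tdTomato+ stroma, which overlapped, with an edgeR adjusted p of 0.095. *Greb1* was at 6.66, 10.7, 16.3 and 11.5 CPM in GFP+ stroma against 11.4, 16.7, 48.2 and 40.7 CPM in tdTomato+ stroma. Its adjusted p was 0.018 by edgeR and 0.00014 with the mouse as a replicate block, and *Foxa1* (0.0011) and *Gata3* (0.0071) were also called with that block. *Greb1* and *Gata3* were below tdTomato+ stroma in 7 of 7 mice.

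*Foxa1*, *Gata3* and *Prom1* in untreated tdTomato+ stroma were highest in the libraries with the most luminal epithelial signal. In tdTomato+ stroma of untreated mice 1 to 4 those markers were at 1.17, 4.00, 6.44 and 0.294% of their level in tdTomato+ luminal cells. *Foxa1* was at 6.93, 12.4, 31.1 and 0 CPM, *Gata3* at 5.13, 11.7, 27.7 and 2.04 CPM and *Prom1* at 2.28, 22.1, 15.9 and 0 CPM in the same libraries, so mice 2 and 3 were high and mouse 4 was at or near 0. After E+P the order was another one, with the summed markers at 8.01, 33.5 and 2.81 CPM in tdTomato+ stroma of mice 1 to 3, *Foxa1* at 1.07, 0.0494 and 0.306 CPM and *Gata3* at 1.33, 0.543 and 1.16 CPM. In GFP+ stroma after E+P, *Foxa1* had 2 and *Prom1* 3 counts in the 3 libraries together, and no fold is given. The part of luminal cells in these stromal values was not tested.

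*Pgr* followed the luminal markers in untreated tdTomato+ stroma, at 4.46, 28.2, 54.8 and 0.583 CPM, but not in GFP+ stroma after E+P. There it was at 43.0, 33.6 and 37.8 CPM, against 8.10, 18.1, 20.7 and 4.49 CPM in untreated mice, and the treated values equalled 4.64 to 8.45% of the tdTomato+ luminal level, where the luminal markers were at 0.0606 to 0.0831%. The groups did not overlap, yet the difference was not called (log2 change 1.57, SE 0.95, edgeR adjusted p = 0.80). In tdTomato+ stroma *Pgr* was at 5.61, 8.45 and 5.57 CPM after E+P. Between the stromal subsets after E+P its log2 difference was 2.53 (SE 1.07) with an edgeR adjusted p of 0.085.

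**Figure D4:**
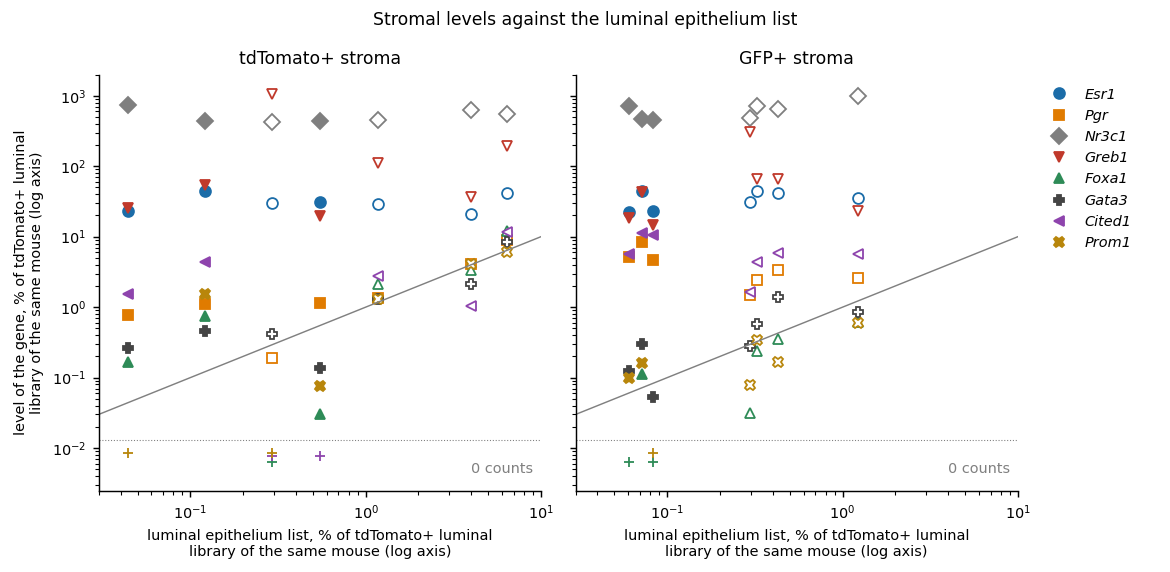
The 8 members in stroma, each as a percent of its level in tdTomato+ luminal cells of the same mouse, against the summed luminal epithelial markers expressed likewise, on log axes. The gray diagonal marks equal percentages, open symbols are untreated and filled symbols E+P mice, and plus signs under the dotted line are libraries with 0 counts. *Pgr* in GFP+ stroma after E+P lies at 4.64 to 8.45%, above the diagonal, where the markers are at 0.0606 to 0.0831%.

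Few genes were called after E+P in stroma, and *Esr1* and *Greb1* were among them. In GFP+ stroma 2 of 8 members were called, where 0.231% of all genes were, and in tdTomato+ stroma 1 of 8, where 0.124% were. *Esr1* in GFP+ stroma fell 3.35-fold, from 126, 136, 92.8 and 70.8 CPM to 33.4, 30.4 and 30.9 CPM (log2 change -1.74, SE 0.19, edgeR adjusted p = 0.00014), a call made without each of the 7 mice. *Esr1* in tdTomato+ stroma fell 2.27-fold, from 84.6, 81.4, 91.1 and 68.6 CPM to 33.6, 41.3 and 32.5 CPM (log2 change -1.18, SE 0.19, edgeR adjusted p = 0.0081). That call was lost without untreated mouse 1 or 3 or any E+P mouse, with an adjusted p up to 0.068.

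*Greb1* rose 11.8-fold in GFP+ stroma, from 6.66, 10.7, 16.3 and 11.5 CPM to 155, 109 and 135 CPM (log2 change 3.56, SE 0.45, edgeR adjusted p = 0.0037). It was called in 2 of the 7 fits without a mouse (those without untreated mouse 1 or 3), and the adjusted p reached 0.035 without E+P mouse 1. In tdTomato+ stroma the values were 194, 148 and 188 CPM after E+P, above the 11.4 to 48.2 CPM of untreated mice, with a log2 change of 2.59 (SE 0.43) and an edgeR adjusted p of 0.019. Both stromal subsets after E+P were thus above the untreated luminal subsets in *Greb1*, and below treated tdTomato+ luminal cells at 356 to 747 CPM.

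*Nr3c1* in GFP+ stroma was at 226 to 254 CPM before and 230 to 242 CPM after E+P (log2 change -0.02) and in tdTomato+ stroma at 155 to 204 and 222 to 244 CPM (log2 change 0.35, SE 0.12, edgeR adjusted p = 0.15). The difference in response between the stromal subsets was called in 0 of 8 members by edgeR, DESeq2 and limma-voom, where 0.045% of all genes were called by edgeR. At an unadjusted p under 0.05, edgeR had 3 members (*Esr1*, *Pgr* and *Nr3c1*), DESeq2 2 and limma-voom 1. For GFP+ against tdTomato+ stroma after E+P, edgeR had 1 member (*Pgr*), DESeq2 2 and limma-voom 1 at that level, and none of the 3 tools called any.

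Luminal and stromal cells were then compared within each label. In untreated mice 6 of 8 members were called between luminal and stromal GFP+ cells, where 41.3% of all 19569 genes tested were, and 7 of 8 between the tdTomato+ populations, where 48.7% were. After E+P the counts were 5 of 8 beside 39.8% (3 without E+P mouse 1 or 2) and 7 of 8 beside 45.2%. *Nr3c1* was lower in luminal cells in all 4 comparisons, by log2 differences of -1.51 (SE 0.16, edgeR adjusted p = 1.4e-08) and -2.33 (1.3e-11) in untreated GFP+ and tdTomato+ cells and of -0.85 (0.00036) and -2.34 (2e-10) after E+P. Without E+P mouse 1 the third of these had an adjusted p of 0.016.

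*Esr1* was called in opposite directions in GFP+ and tdTomato+ cells after E+P. In tdTomato+ cells it was higher in luminal cells, by log2 differences of 1.78 (SE 0.31, edgeR adjusted p = 2.5e-05) untreated and 1.68 (SE 0.35, adjusted p = 0.0003) after E+P. In GFP+ cells the log2 difference was -0.68 (adjusted p = 0.062) untreated and -1.22 (SE 0.36, adjusted p = 0.0061) after E+P, when luminal cells at 12.3 to 14.9 CPM lay below stroma at 30.4 to 33.4 CPM. The last call was lost without any E+P mouse (adjusted p up to 0.062) and with library size scaling (0.035), and that after E+P in tdTomato+ cells without E+P mouse 3 (0.015).

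*Gata3* was 85.2-fold and 37.1-fold higher in luminal than in stromal GFP+ and tdTomato+ cells of untreated mice. *Foxa1* was 61.4-fold and 24.2-fold and *Prom1* 61.3-fold and 32.5-fold higher there. *Cited1* was 5.49-fold higher in GFP+ (edgeR adjusted p = 0.0032) and 38.8-fold higher in tdTomato+ luminal cells, but after E+P GFP+ luminal cells (0.499 to 1.22 CPM) and GFP+ stroma (0.689 to 1.06 CPM) overlapped. *Pgr* was 7.96-fold higher in GFP+ (edgeR adjusted p = 0.0043) and 21.8-fold higher in tdTomato+ luminal cells of untreated mice. After E+P it was 99.5-fold higher in tdTomato+ luminal cells, whereas in GFP+ cells luminal (22.4 to 62.4 CPM) and stromal (33.6 to 43.0 CPM) levels overlapped. The untreated GFP+ call of *Pgr* was lost without untreated mouse 1, 2 or 3 or E+P mouse 1 or 2 (adjusted p up to 0.022), and that of *Cited1* without untreated mouse 1 or 3 (up to 0.028).

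*Greb1* was the 1 member that edgeR called between luminal and stromal cells in 0 of the 4 comparisons. After E+P its log2 differences were -1.93 (edgeR adjusted p = 0.033) in GFP+ and 1.79 (0.041) in tdTomato+ cells, and both were called by limma-voom (adjusted p = 0.00092 and 0.00017) and by edgeR when only the groups compared were fitted. Ordered by mean over all 8 groups, it was highest in treated tdTomato+ luminal cells, then in both treated stromal groups, which overlapped each other, and then in treated GFP+ luminal cells at 17.9 to 50.2 CPM. The 4 untreated groups followed, each overlapping its neighbour. For *Esr1* the highest group was untreated tdTomato+ luminal cells and the lowest treated GFP+ luminal cells, both separate from their neighbours. For *Nr3c1* the 4 stromal groups came first, followed by GFP+ luminal cells after E+P, GFP+ luminal cells of untreated mice, and the tdTomato+ luminal groups.

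Other genes of the steroid pathway were taken from fixed lists. Like the members, these were chosen with earlier results of these data known, so their counts and medians are not independent of these data. Among 7 further steroid and related receptors tested in luminal cells, 2 were lower in GFP+ than in tdTomato+ cells of untreated mice, *Esrrg* (log2 difference -1.43) and *Nr3c2* (-0.97), the mineralocorticoid receptor. After E+P both were higher in GFP+ cells, by 2.79 and 2.26, and *Esrrb* (-4.39) and *Pgrmc1* (-0.89) were lower. Of all genes tested, 15.4% were called between these subsets in untreated mice and 25.4% after E+P. For E+P against untreated, 14.1% of all genes were called in tdTomato+ and 5.96% in GFP+ luminal cells. In tdTomato+ luminal cells E+P lowered *Nr3c2* from 64.5 CPM (58.2 to 68.6) to 4.74 CPM (3.66 to 6.54) and *Esrrg* from 27.7 to 1.45 CPM, by -3.73 and -4.17 on the log2 scale. In GFP+ luminal cells edgeR, DESeq2 and limma-voom each called 0 of these 7 receptors after E+P, with 2 at an unadjusted p under 0.05 by edgeR, and the difference of responses was itself called for both (*Nr3c2* 3.23, edgeR adjusted p = 0.00012, and *Esrrg* 4.21, 0.00038). *Esr2*, the second estrogen receptor gene, had 0 counts in all 14 luminal libraries.

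The list of 12 other genes of hormone-sensing luminal cells was lower in GFP+ cells in 4 genes of untreated mice, with a median log2 difference of -2.05 against -0.01 over all genes tested. They were *Ly6a* (-2.36), the prolactin receptor *Prlr* (-2.28), *Spdef* (-1.77) and *Tbx3* (-1.61), and 0 were higher. After E+P 9 were lower and 0 higher, with a median of -3.56 against 0 over all genes, led by *Cxcl15* (-4.61), the RANKL gene *Tnfsf11* (-4.26), *Ly6a* (-4.14) and *Stc2* (-4.12). In tdTomato+ luminal cells E+P raised 2 of the 12, *Calca* (8.74, from 0.865 to 406 CPM) and *Tnfsf11* (8.24, from 0.374 to 127 CPM), and in GFP+ cells edgeR and limma-voom called 0 and DESeq2 5, with 7 at an unadjusted p under 0.05 by edgeR. For both genes the untreated tdTomato+ levels were low and the fitted fold depends on the prior count. The 5 DESeq2 calls in GFP+ cells included *Tnfsf11*. The difference of responses between the subsets was called in 0 of the 12 by edgeR, DESeq2 and limma-voom. At an unadjusted p under 0.05 edgeR had 2, and it called 2.27% of all genes for that difference. The share of all genes that edgeR called for E+P was 14.1% in tdTomato+ and 5.96% in GFP+ luminal cells. Between the subsets it was 15.4% in untreated mice and 25.4% after E+P.

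Of 11 estrogen-responsive genes tested in luminal cells, 3 were higher and 1 lower in GFP+ cells of untreated mice, with *Bcl2* (2.24), *Rerg* (2.21) and *Myc* (1.01) up and *Rara* (-0.66) down. After E+P 3 were higher and 4 lower in GFP+ cells, among them *Rerg* (3.75), *Bcl2* (3.01), *Ccn5* (-3.60) and *Ctsd* (-2.78). Of all genes tested, 15.4% were called in untreated mice and 25.4% after E+P. In tdTomato+ luminal cells E+P raised *Ccn5* (3.61) and *Ctsd* (2.41) and lowered *Rara* (-0.60). In GFP+ cells *Rara* (-0.68) was the 1 of 11 called, and the difference of responses was called for *Ccn5* (-4.90) and *Ctsd* (-2.68). The shares of all genes called were 14.1% in tdTomato+ cells, 5.96% in GFP+ cells and 2.27% for the difference. Among 12 glucocorticoid-responsive genes E+P raised 4 in tdTomato+ luminal cells, *Fkbp5* (3.94), *Tsc22d3* (3.06), *Zbtb16* (2.40) and *Sgk1* (1.97). The glucocorticoid and progesterone receptors share the response element searched above, and *Fkbp5* is also known as a progesterone target. Which receptor acted on any of these 4 genes was not tested. In GFP+ luminal cells 1 of the 12 was called, *Tsc22d3* (1.39), beside 5.96% of all genes, against 14.1% in tdTomato+ luminal cells. The difference of responses was called in 0 of the 12 by edgeR, beside 2.27% of all genes, with 5 at an unadjusted p under 0.05. DESeq2 called 3 (*Fkbp5*, *Sgk1* and *Tsc22d3*) and limma-voom also 3, so the tools disagreed. Between GFP+ and tdTomato+ luminal cells 1 was higher and 1 lower in untreated mice, beside 15.4% of all genes. After E+P 1 was higher and 4 were lower, beside 25.4%.

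Of 13 receptor coregulators and chaperones, 1 was higher and 1 lower in GFP+ than in tdTomato+ luminal cells of untreated mice, *Ncoa1* (0.68) and the corepressor *Ncor1* (-0.31), where 15.4% of all genes were called. After E+P 2 were higher, *Ncoa1* (0.90) and *Ncoa3* (0.63), and 2 lower, *Nrip1* (-1.43) and *Ep300* (-0.36), beside 25.4% of all genes. In stroma 0 were higher in GFP+ cells, and 6 were lower in untreated mice, among them the chaperone *Fkbp4* (-0.81) and *Ncor1* (-0.40), and 5 after E+P. In luminal cells of untreated mice the other luminal transcription factors were higher in GFP+ cells in 3 of 10, *Elf5* (1.97), *Tfap2c* (1.86) and *Ehf* (1.65), beside 15.4% of all genes. After E+P 4 were higher and 1 was lower, beside 25.4%. After E+P the coregulator *Nrip1* rose in tdTomato+ luminal cells (1.02), and *Foxp1* fell in tdTomato+ (-0.81) and in GFP+ (-0.70) luminal cells, where *Elf3* also fell (-1.11). *Pgrmc1* was higher (1.16) and *Nr3c2* lower (-0.77) in untreated GFP+ stroma. After E+P 0 of 63 list genes were called by edgeR in GFP+ or tdTomato+ stroma, with 15 and 10 at an unadjusted p under 0.05. Of all genes 0.231% and 0.124% were called there, so a count of 0 does not set the lists apart from other genes. DESeq2 called 1 in GFP+ stroma (*Ccn5*) and 2 in tdTomato+ stroma (*Prlr* and *Stc2*), and limma-voom 0.

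The genes whose pattern over the 14 luminal libraries was most like that of a member were found by the root mean square difference of mean-centred log2 CPM among 8477 genes. *Esr1* was nearest to *Aox1* (0.276) and *Prlr* (0.346), and *Prom1* to *Esr1* (0.45) and *Aox1* (0.492). *Pgr* was nearest to *Gm16485* (0.31) and *Acsbg1* (0.384), *Foxa1* to *Mtmr7* (0.284) and *Eps8* (0.305), and *Cited1* to *Clip4* (0.525) and *Capn8* (0.598). *Gata3* was nearest to *Bace1* (0.107) and *Sfmbt1* (0.148) and *Nr3c1* to *Notch1* (0.174) and *Grsf1* (0.194). *Greb1* had no close match, with *Cpeb1* (0.878) and *Gpx3* (0.979) nearest. Of these 16 nearest genes, counted per member, 15 were also found with a prior count of 0.5, but only 7 with 1 minus Pearson's r as the distance. These distances describe libraries that share mice and labels.

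By position, the members lie on different chromosomes except *Greb1* and *Foxa1*. On GRCm38 with GENCODE M21, *Esr1* spans chr10:4611593-5005614, *Pgr* chr9:8899833-8968611, *Nr3c1* chr18:39410545-39519421, *Greb1* chr12:16670615-16800886 and *Foxa1* chr12:57540628-57546916. *Gata3* spans chr2:9857078-9890034, *Cited1* chrX:102247381-102252181 and *Prom1* chr5:43993620-44102032. *Greb1*, *Gata3* and *Prom1* overlap annotated antisense genes, and whether the authors' counts used strand is not given in the sources used here. The *Gata3* antisense gene had 288 counts in all libraries and that of *Prom1* 51, beside 85586 and 36225 for the members. *Gata3* also overlaps in exons with a protein-coding gene on its own strand, *9230102O04Rik*, which had 978 counts.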

How the data were processed

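RNA of 28 libraries was sequenced with a stranded total RNA kit, and the deposited values are raw read counts per gene, which the authors made with STAR 2.5.2a on GRCm38.p5. The annotation release and the strand setting of the counting are not given in the sources used here. Of 50600 gene identifiers 50376 matched GENCODE M21, 45737 with the same version.

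Groups came from the sample titles. Luminal and stromal libraries were fitted apart for comparisons within a lineage and together for comparisons between them. TMM scaling and filterByExpr preceded edgeR (4.0.16, R 4.3.3), whose quasi-likelihood F statistic gave two-sided p-values, adjusted by Benjamini-Hochberg over every gene tested. A gene was called below 0.01. The standard error of a log2 fold change is its size over the root of F. CPM were scaled by TMM, and a prior count of 2 was used where they were put on the log2 scale. Scaling by library size only moved the median log2 difference of all genes by over 0.1 in 7 comparisons, to at most 0.46.

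Libraries of a mouse share its number in the titles, so the mouse was a block in an alternative fit (mean correlation of deviations between luminal subsets 0.164 in untreated and 0.147 in E+P mice). Numbers of untreated and E+P mice mark different mice and pair nothing. Alternatives were DESeq2 1.42.0, limma-voom (limma 3.58.1), other scalings, no filter, a threshold of 0.05, only the groups compared, blocks and leaving out each mouse. The mouse block for differences of responses was added after seeing the data. The fits were also run on simulated counts with the same dispersion for every gene and no mouse effect. That setting does not cover the spread between mice seen here.

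Genes named are the members, from each list up to 4 called genes per comparison with a group mean of 10.0 CPM or more, and the 2 genes most like each member. Members and lists were chosen with earlier results of these data known. Windows before gene starts are those of RefSeq on GRCm38.p6, and the window of *Nr3c1* was not used here.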

Additional observations from a re-analysis of the deposited data

How the results depend on the processing

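Over 112 results, of which 48 were called, alternatives other than leaving out a mouse kept direction and side of the threshold in 693 cases, lost a call in 43 and gained one in 37. Leaving out 1 mouse kept 687, lost 84 and gained 5. No called result reversed.

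Members called between luminal subsets of untreated mice (6) became 3 with no filter and 1 with only the groups compared, against 6 and 8 for the 8 called after E+P. After E+P, GFP+ luminal cells (3) gave 1 with limma-voom and 0 with no filter or only the groups compared, and tdTomato+ luminal cells (2) gave 4 at 0.05 or with DESeq2 and 1 with no filter or with the replicate number as a block, which pairs no samples here. Between stromal subsets the untreated count (1) became 4 at 0.05, 0 with DESeq2 size factors, library size or only the groups compared, 2 with DESeq2, 5 with no filter and 3 with the replicate block, and the E+P count (0) 2 with no filter and 1 with only the groups compared. After E+P, GFP+ stroma (2) gave 6 with no filter. There tdTomato+ stroma (1) gave 2 at 0.05, 3 with DESeq2, 6 with no filter and 0 with only the groups compared. The difference of stromal responses (0) gave 1 with no filter, and luminal against stromal GFP+ cells after E+P (5) gave 3 with library size or limma-voom. Without 1 mouse the counts ranged from 1 to 6 and 3 to 8 between luminal subsets of untreated and E+P mice, 0 to 3 and 0 to 2 after E+P in GFP+ and tdTomato+ luminal cells, 0 to 2 between untreated stromal subsets, 1 to 2 and 0 to 2 after E+P in GFP+ and tdTomato+ stroma and 3 to 5 between GFP+ lineages after E+P. Causes were not tested.

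Values that reversed were all uncalled. Differences of luminal responses became -0.04 for *Nr3c1* (without E+P mouse 3; range without 1 mouse -0.04 to 0.48), 0.07 for *Gata3* (-0.25 to 0.07) and 0.08 for *Prom1* (-1.07 to 0.08), both without untreated mouse 3. Stromal *Pgr* in untreated mice became 0.20 with limma-voom and 0.00 with the replicate block, and *Nr3c1* after E+P -0.02 with DESeq2, its size factors or library size. Differences of stromal responses became -0.75 and -0.66 for *Foxa1* (without E+P mouse 1 or untreated mouse 3, up to 1.05) and -0.23 for *Prom1* (without E+P mouse 3, up to 3.10). *Greb1* between untreated tdTomato+ lineages became 0.07 (without untreated mouse 4, range from -1.41), and between GFP+ lineages after E+P *Pgr* became -0.05 with limma-voom and -0.24 (without E+P mouse 1, range to 0.44) and *Cited1* 0.12 with library size. The mouse block changed no other member's call than those named in the report. Genes near 3 counts are limited by depth.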
